A study of Rattus norvegicus with 7 samples.

Results

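The carbonic anhydrases are a family of enzymes, most of which convert carbon dioxide and water to bicarbonate and a proton, and transcripts of 10 of their genes are described here in the meibomian gland of the rat. The 10 are Car2, Car3, Car4, Car5b, Car6, Car8, Car9, Car12, Car13 and Car14, out of 17246 genes in the count table. The list was chosen by family name and by presence in the tables, with the difference of Car2 between the groups already known, so the values of Car2 are given as a description without a test. Of the 10 genes, 1 stands in the tables under its current symbol, and 9 stand under older symbols (Ca3 for Car3, and so on) and were matched by NCBI gene ID. Another 4 genes of the family in the tables, Car1, Car7, Car10 and Car11, serve for comparison; Car5a and Car15 were not analysed here.

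RNA sequencing was done on meibomian glands, the oil glands of the eyelid, from wild-type female Sprague-Dawley rats aged 3 months. In the UVB group (3 libraries) the shaved upper lids received ultraviolet B light at 300 mJ/cm2 in a 5 min session on each of 5 days. The control group (4 libraries) is labelled as having no treatment, and whether its lids were shaved is not given in the sources used here. Whether libraries of a group came from separate animals is not stated either, so p-values measure the spread between these libraries. Letters name the libraries, a to d for controls and a to c for UVB, without order or pairing. Library totals ran from 20680237 to 28784941 counts. A list of 9 marker genes of the lipid-making cells of the gland holds the wax synthase gene Awat2 and the desaturase gene Scd. Its sum was 43500 to 52700 TPM in controls and 40100 to 46700 TPM after UVB, so these transcripts were abundant in every library. Whether the list tells this gland from other lipid-making tissue was not tested. Of these 9, 0 rose and 2 fell after UVB (Awat2 and Plin2) by the edgeR test used below, with 2 higher and 2 lower at an unadjusted p under 0.05 and 1 higher and 2 lower by DESeq2. TPM is relative abundance corrected for transcript length, and it is the scale used below wherever genes are set side by side.

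Carbonic anhydrases differ in where they work. Car1, Car2, Car3, Car7 and Car13 are cytosolic, Car5b is mitochondrial, Car6 is secreted, and Car4, Car9, Car12 and Car14 sit in the plasma membrane with the active site outside the cell. Car8, Car10 and Car11 are related proteins that lack the catalytic activity of the family. In epithelia the enzymes supply bicarbonate and protons to ion exchangers, and in lipid-making tissues mitochondrial and cytosolic forms supply bicarbonate to carboxylases of glucose and fatty acid synthesis.

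In control glands the mitochondrial Car5b was the leading carbonic anhydrase transcript, at 193 ± 23.3 TPM (SD, n = 4), and it held 53.2% ± 3.38 of the summed TPM of the 14 family genes (SD, n = 4). Car13 followed at 60.5 ± 5.38 TPM and Car12 at 39.7 ± 5.09 TPM (SD, n = 4 for each). These first 3 stood in this order in 4 of 4 controls, and their ranges did not overlap with each other or with the next gene. Car14 (18.5 ± 0.414 TPM, SD, n = 4) and the acatalytic Car11 (17.8 ± 1.12 TPM, SD, n = 4) could not be ranked against each other, since each was the higher in 2 of 4 controls. Car3 (14.9 ± 7.55 TPM), Car6 (9.20 ± 1.30 TPM) and Car2 (6.85 ± 1.83 TPM, SD, n = 4 for each) came next, with ranges that overlapped between neighbours. Car8, Car4 and Car9 were scarce, with control means of 0.647, 0.400 and 0.253 TPM, and their neighbouring ranges overlapped, also with that of Car1 (0.318 TPM). Car7 and Car10 had at most 2 counts in any library.

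**Figure D1:**
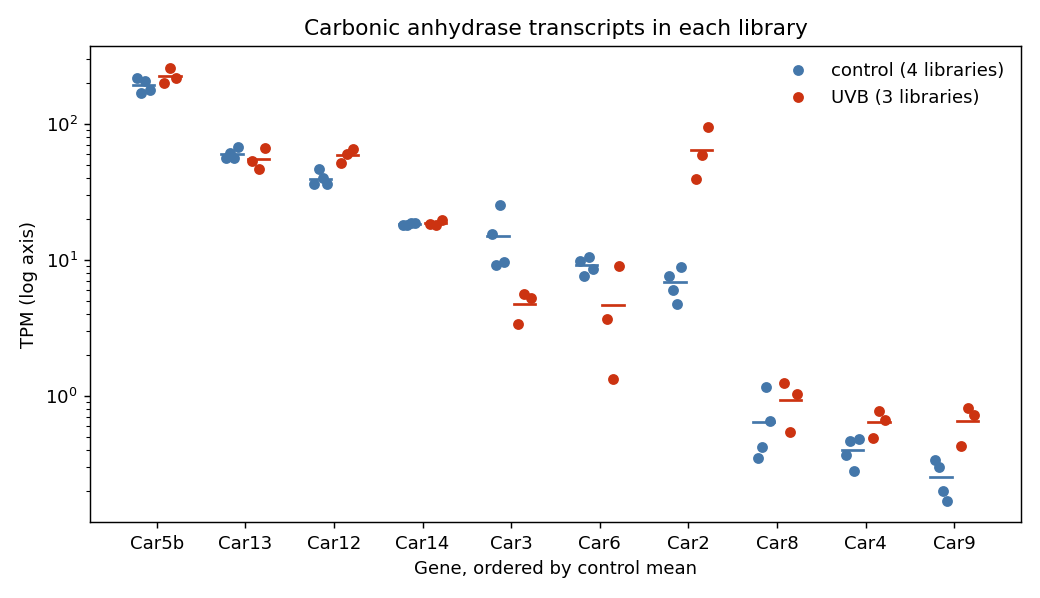
TPM of the 10 carbonic anhydrase genes in each library, on a log axis, ordered by the control mean; points are libraries (4 control, 3 UVB) and horizontal lines are group means. Car2 moves from the seventh place in controls to a level beside Car12 and Car13 after UVB, while the points of Car14 lie on top of each other.

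The comparison of irradiated with untreated glands asked which of these transcripts differ after UVB. Counts were tested over all genes with edgeR's quasi-likelihood test, and a gene is said to have risen or fallen where its Benjamini-Hochberg adjusted p over all genes is under 0.05. Of the 10 genes 9 passed the filter on low counts, and Car4 did not. Of the 8 tested genes other than Car2, Car9 and Car12 rose, Car3 fell and 5 did not pass. That is 37.5% of the 8, where 13.0% of all 13709 tested genes were called, 6.30% higher and 6.74% lower. The shares over all genes are the background for each list in the text as well. In CPM (counts scaled to the library total), control and UVB libraries were fully apart for the same 3 genes of the 8, and for 26.6% of all tested genes. The median log2 fold change of the 8 was 0.11, beside -0.00583 for all tested genes. In whole glands, a change in the number of cells that make a transcript and a change in the amount per cell cannot be told apart.

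**Figure D2:**
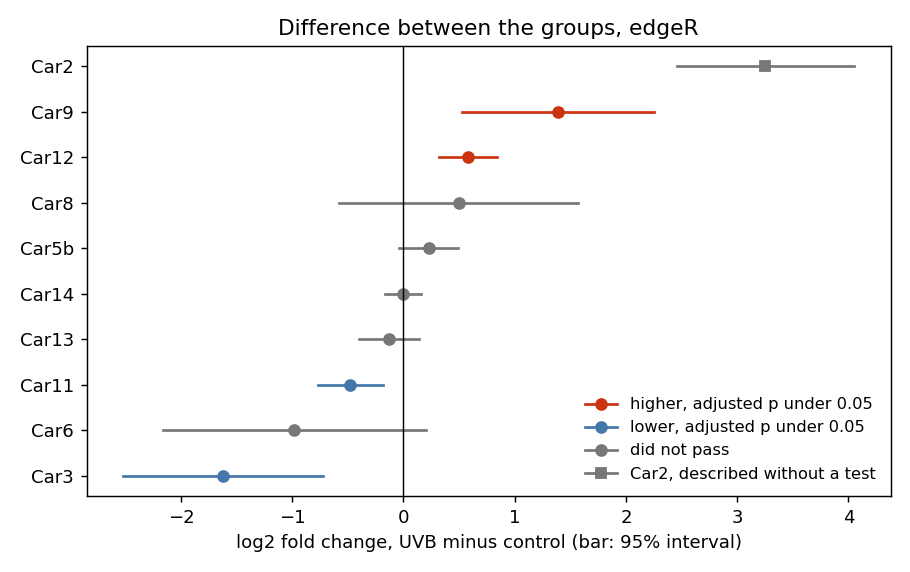
Log2 fold change (UVB minus control) of the 9 tested carbonic anhydrase genes and of Car11, from edgeR, with 95% intervals; colour marks an adjusted p under 0.05, and the square marks Car2, which is described without a test. The interval drawn for Car2 takes no account of its selection on this difference. Car12 has a narrow interval from 0.32 to 0.84, and those of Car3, Car6, Car8 and Car9 are wide.

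Among the cytosolic genes, Car2 (NCBI gene 54231) encodes the most active and most widespread cytosolic form. It was recorded at 7.65, 6.07, 4.74 and 8.93 TPM in controls a to d and at 39.55, 59.52 and 95.83 TPM in UVB a to c. The lowest UVB library was more than 4 times the highest control, and the UVB libraries themselves spread widely. The means were 6.85 ± 1.83 TPM (SD, n = 4) and 65.0 ± 28.5 TPM (SD, n = 3). The fitted log2 fold change was 3.25, or 9.53-fold, in a gene chosen with this difference known. Without UVB c, the library with the highest value, the log2 fold change was 2.86. The share of Car2 in the summed TPM of the family went from 1.90% ± 0.552 (SD, n = 4) to 14.1% ± 4.79 (SD, n = 3). After UVB it could not be ranked against Car12 (59.3 ± 7.22 TPM) or Car13 (55.5 ± 10.2 TPM, SD, n = 3 for each): it was below Car12 in UVB a and UVB b and above both in UVB c.

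Car2 is also known from osteoclasts, red blood cells and some macrophages, so their markers are given beside it. Of 7 macrophage markers tested, Cd163, Mrc1 and C1qb rose and 4 did not pass, with a list median of 0.85 on the log2 scale. The scavenger receptor gene Cd163 moved most (3.50, SE 0.40, edgeR adjusted p = 0.00402), from 0.97 ± 0.37 TPM (SD, n = 4) to 11.2 ± 4.93 TPM (SD, n = 3). The summed TPM of the list was 73.0 to 134 in controls and 106 to 185 after UVB, and UVB b, with a middle value for Car2, was the lowest UVB library for the macrophage sum. Of 7 osteoclast markers listed in the data, 3 were tested, and Acp5, an acid phosphatase gene also used by macrophages, rose (0.39, SE 0.0974, edgeR adjusted p = 0.0309). Ctsk (0.32, edgeR adjusted p = 0.124) and the scarce Oscar (0.94, edgeR adjusted p = 0.114) did not pass. All 3 were higher at an unadjusted edgeR p under 0.05. The osteoclast list summed to 78.9 to 101 TPM in controls and 108 to 116 TPM after UVB. Most of this sum was Acp5, at 67.9 ± 7.60 TPM (SD, n = 4) in controls and 89.3 ± 6.23 TPM (SD, n = 3) after UVB. The defining osteoclast genes Ocstamp, Dcstamp, Calcr and Atp6v0d2 had at most 8 counts in any library. For red blood cells, Alas2 and Slc4a1 summed to 1.40 to 2.55 TPM in controls and 1.41 to 2.25 TPM after UVB, and neither passed the test. The haemoglobin genes were not analysed here, and the part of macrophages or of osteoclast-type cells in the level of Car2 was not tested.

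The genes whose pattern over the 7 libraries was most like that of Car2 were Defb4, Klk9, Klk12, Cnfn and Klk13, among 11965 other genes with a mean count of at least 50. Defb4 encodes a beta-defensin, Klk9, Klk12 and Klk13 encode kallikrein-type serine proteases, and Cnfn encodes cornifelin of the cornified envelope. Their Pearson correlations with Car2 in log2 CPM ran from 0.9899 to 0.9953 (n = 7 libraries); the points share the contrast between the groups, so the values are a description only. The mean of Defb4 was 70.9 TPM in controls and 280 TPM after UVB, and that of Cnfn was 147 and 382 TPM. Their differences between the groups were smaller than that of Car2 on the log2 scale, from 1.19 for Klk13 to 1.98 for Defb4. With the group means subtracted, the most similar genes were Znrf2, Il36g, Cnbp, Vps4b and Tmx1 (0.9729 to 0.9949). Of these, Il36g, an interleukin of the epidermis, had a log2 fold change of 1.86 and the other 4 lay between -0.22 and 0.13. This second set also holds the highest of 11965 correlations over 7 libraries, and it is a description only.

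**Figure D3:**
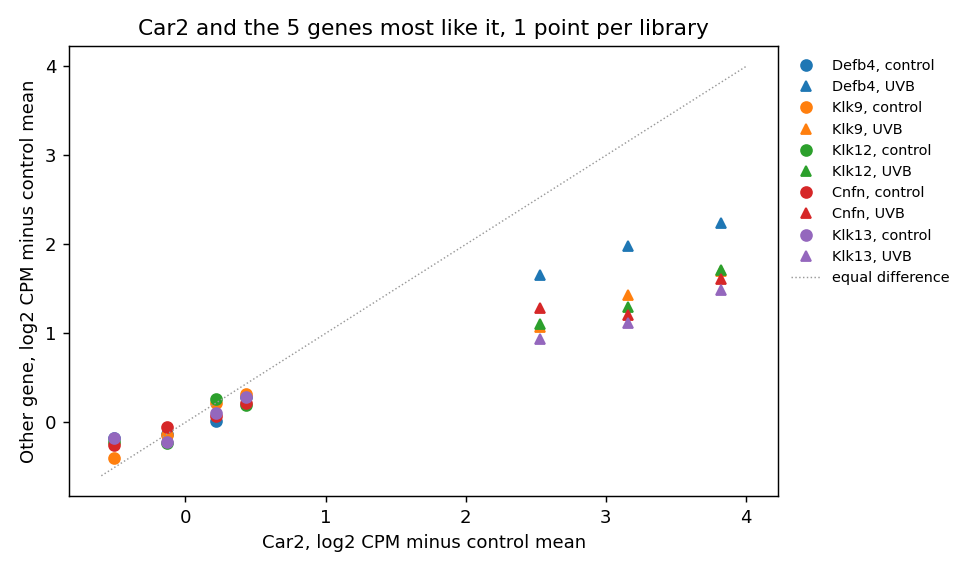
Difference from the control mean in log2 CPM (prior count 2) for Car2 on the x axis and for its 5 most similar genes on the y axis; each point is 1 library, circles are controls and triangles are UVB libraries, and the dotted line marks equal differences. All UVB points lie below the dotted line, with Defb4 nearest to it.

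Car3 (NCBI gene 54232) encodes a cytosolic form with low activity that is abundant in fat cells and in slow muscle. It measured 15.52, 9.14, 25.35 and 9.60 TPM in controls a to d and 3.41, 5.65 and 5.25 TPM in UVB a to c. Every UVB library was below every control, and control c was well above the other controls. Car3 fell by 1.62 on the log2 scale (SE 0.389, edgeR adjusted p = 0.034), to 0.325 of the control level with an interval from 0.174 to 0.608. Without control c the log2 fold change was -1.26 and passed (adjusted p = 0.037). The call was lost without control a (0.0673), UVB a (0.0953), UVB b (0.0759) or UVB c (0.0658), with no low-count filter (0.0559) and on the log2(TPM + 1) scale without a filter (0.0565), and over its 16 alternatives the adjusted p ran from 3.5e-05 to 0.0953.

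Fat cell genes varied beside Car3. The adipokine gene Adipoq measured 9.01, 5.41, 17.6 and 3.04 TPM in controls a to d and 1.85, 4.07 and 3.81 TPM in UVB a to c, so control c was the highest library and UVB a the lowest for both genes. Of the 6 fat cell markers tested, the lipid droplet gene Cidec fell by 2.08 on the log2 scale (SE 0.54, edgeR adjusted p = 0.037). Adipoq (-1.43, SE 0.568, adjusted p = 0.14) and Plin1 (-1.65, SE 0.611, adjusted p = 0.113), which coats lipid droplets, did not pass, and neither did Cfd (-0.024), Fabp4 (-0.085) and Retn (1.60). The list summed to 87.3 to 158 TPM in controls and 88.3 to 115 TPM after UVB, and its median log2 fold change was -0.76. The part of fat cells in the fall of Car3 was not tested. Over the fat cell list DESeq2 called 3 lower and limma-voom 0. Of 7 slow muscle markers, 0 were called by edgeR, DESeq2 or limma-voom and 1 was lower at an unadjusted edgeR p under 0.05, and their median was -0.30. Without Atp2a2, a calcium pump gene used in many cell types that alone measured 166 to 192 TPM in controls and 185 to 191 TPM after UVB, the slow muscle markers summed to 7.33, 13.1, 18.0 and 23.1 TPM in controls a to d and to 12.1, 11.3 and 11.8 TPM in UVB a to c.

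Car13 (NCBI gene 499566), the most abundant cytosolic form in controls, measured 56.0 to 67.5 TPM in controls and 53.3, 46.6 and 66.7 TPM in UVB a to c. The groups overlapped, and the fitted difference on the log2 scale, -0.13 (SE 0.12, 95% interval -0.40 to 0.14), did not pass (edgeR adjusted p = 0.512). Its counts were whole in 1 of 7 libraries, which means that some reads were divided between it and other features. It overlaps the pseudogene Prxl2a-ps1 in the rat assembly GRCr8. How far shared reads or this overlap alter its level was not tested. Car2, Car3, Car1 and Car13 are neighbours in this order on that assembly among genes in the tables. The group of neighbours thus held 1 gene that was far higher after UVB, 1 that fell and 1 abundant gene without a call. Car1, the form of red blood cells and gut, was nearly absent, with 2, 8, 4 and 5 counts in controls a to d and 2, 1 and 2 counts in UVB a to c.

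The mitochondrial Car5b (NCBI gene 302669) measured 217, 170, 208 and 177 TPM in controls a to d and 201, 261 and 217 TPM in UVB a to c. The groups overlapped, with UVB b the highest library. The log2 fold change was 0.23 (SE 0.118, 95% interval -0.041 to 0.49) and did not pass (edgeR adjusted p = 0.237). The interval runs from 0.972 to 1.41 times the control level, so a change larger than that lies outside it for these libraries.

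The secreted Car6 (NCBI gene 298657), known from saliva and tears, measured 9.88, 7.67, 10.6 and 8.64 TPM in controls a to d and 3.67, 1.34 and 9.01 TPM in UVB a to c. UVB a and UVB b were below every control, and UVB c lay inside the control range. The log2 fold change was -0.98 (SE 0.508, 95% interval -2.16 to 0.20, edgeR adjusted p = 0.242). Without UVB c it was -1.92 and passed (adjusted p = 0.0177), so 1 library decided whether this gene was called. Genes of the salivary and lacrimal acinus were low: Bpifa2 was at 0 in every library, Smgc had at most 2 counts, and the 5 genes of the list in the tables summed to 7.47 to 8.42 TPM in controls and 9.65 to 12.6 TPM after UVB. Of its 3 tested genes, the lactoperoxidase gene Lpo rose (1.22, SE 0.347, edgeR adjusted p = 0.0475). DESeq2 called it as well (adjusted p = 0.0228), and limma-voom did not (0.0744). Over this list DESeq2 called 2 higher and limma-voom 0, and 2 were higher at an unadjusted edgeR p under 0.05. Lpo was scarce, at 0.46 to 0.53 TPM in controls and 0.74, 1.87 and 0.88 TPM in UVB a to c, with UVB b, the lowest library for Car6, the highest.

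Of the membrane forms, Car12 (NCBI gene 363085) had the steadiest difference. It is found at the surface of many secretory epithelia and is a known target of hypoxia-inducible factors. It measured 36.0, 46.9, 39.8 and 36.2 TPM in controls a to d and 51.7, 60.0 and 66.1 TPM in UVB a to c. Every UVB library was above every control. Car12 rose by 0.58 on the log2 scale (SE 0.114, edgeR adjusted p = 0.0143), or 1.49-fold with an interval from 1.25 to 1.79. It was called in all 16 alternatives, with adjusted p-values up to 0.0495. In GRCr8 the span of Car12 overlaps that of the uncharacterised gene LOC120094191; the counts of Car12 were whole in 7 of 7 libraries, and whether exons overlap was not tested.

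Car9 (NCBI gene 313495), a tumour and hypoxia marker, rose at a very low level. It had 9, 8, 7 and 5 counts in controls a to d and 11, 26 and 23 counts in UVB a to c, or 0.253 ± 0.0806 TPM (SD, n = 4) and 0.653 ± 0.199 TPM (SD, n = 3). The groups did not overlap, although UVB a was close to control a in TPM (0.43 and 0.34). The log2 fold change was 1.39 (SE 0.382, 95% interval 0.53 to 2.25, edgeR adjusted p = 0.0423). Its adjusted p missed the threshold when control b (0.0702), control c (0.108) or control d (0.107) was left out, when UVB b (0.139) or UVB c (0.106) was left out, under DESeq2 (0.0555) and with no low-count filter (0.0531). On the log2(TPM + 1) scale, which understates changes of scarce genes, the difference was 0.40 (adjusted p = 0.0484).

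Car14 (NCBI gene 791259) hardly varied: it measured 18.2, 18.0, 18.9 and 18.8 TPM in controls a to d and 18.3, 18.0 and 19.6 TPM in UVB a to c. The fitted difference on the log2 scale was -0.0040 (SE 0.0728) and did not pass (edgeR adjusted p = 0.98), with an interval from 0.891 to 1.12 times the control level. Its counts were not whole in any library (0 of 7), so its level rests in part on reads shared with other features. Car4, a lipid-anchored form of capillaries and secretory epithelia, had 5, 7, 5 and 7 counts in controls a to d and 7, 14 and 12 in UVB a to c. The low-count filter kept it out of the edgeR test above. In the edgeR fit without that filter it did not pass (0.81, SE 0.428, 95% interval -0.13 to 1.75, adjusted p = 0.267). Its groups did not overlap in CPM, although UVB a (0.332) was close to control b (0.327). Of 5 capillary markers tested, Plvap, a component of endothelial pores (0.69, SE 0.0723, adjusted p = 0.00157), Flt1 and Cdh5 rose, and the list summed to 127 to 139 TPM in controls and 176 to 192 TPM after UVB.

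RefSeq promoter windows of GRCr8 were found for 5 of the 10 genes, Car4, Car5b, Car9, Car12 and Car14. The 250 bases before the gene start are shown, 5′ to 3′ on the gene's strand, for Car9 and Car12, the genes that rose, and for Car14, the most constant gene. Capitals mark matches on either strand to ACGTG (the core of a hypoxia response element), to TGANTCA (an AP-1 site; AP-1 is a factor activated in stressed skin) and to the core promoter element TATAAA; matches to different motifs did not overlap in these windows.
Car9, chr5:62558774-62559023, plus strand: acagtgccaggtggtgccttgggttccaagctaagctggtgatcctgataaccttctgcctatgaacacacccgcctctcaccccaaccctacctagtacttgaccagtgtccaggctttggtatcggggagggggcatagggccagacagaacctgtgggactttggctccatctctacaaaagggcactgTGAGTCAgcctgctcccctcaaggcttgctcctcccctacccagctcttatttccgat
Car12, chr8:76169565-76169814, plus strand: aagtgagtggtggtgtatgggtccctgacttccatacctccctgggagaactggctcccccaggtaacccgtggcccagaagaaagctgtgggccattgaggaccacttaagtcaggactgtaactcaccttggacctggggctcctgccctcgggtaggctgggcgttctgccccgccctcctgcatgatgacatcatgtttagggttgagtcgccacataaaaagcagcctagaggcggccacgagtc
Car14, chr2:186138165-186138414, minus strand: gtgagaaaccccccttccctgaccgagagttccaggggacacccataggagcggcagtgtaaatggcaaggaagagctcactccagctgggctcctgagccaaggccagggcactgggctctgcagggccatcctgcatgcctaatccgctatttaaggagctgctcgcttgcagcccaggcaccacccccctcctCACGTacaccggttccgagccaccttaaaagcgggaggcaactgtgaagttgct

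The Car9 window held 1 match to the AP-1 motif, which began 58 bases before the gene start, and 0 matches to ACGTG. The Car12 window held 0 matches to the 3 motifs, and the Car14 window held 1 match to ACGTG, on the opposite strand. Car5b also had 1 AP-1 match and Car4 had 2 matches to ACGTG. Among 33465 RefSeq windows of this length, 16.6% held ACGTG, 6.3% held TGANTCA and 12.9% held TATAAA. Bases after the gene start and bases farther upstream were not searched, so a window with 0 matches does not show that a gene lacks the motif. A match describes the letters only, and the files hold no binding data.

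Since Car9 and Car12 are known hypoxia targets, a list of 23 other hypoxia factor targets was read beside them. Over all 13709 tested genes, 6.30% rose and 6.74% fell. This list moved in both directions: 4 genes rose, 5 fell and 14 did not pass, with a median log2 fold change of -0.078. The risers were Eno1 (0.53, SE 0.0813, edgeR adjusted p = 0.00605), Ldha and Pgk1, which encode glycolytic enzymes, and the glucose transporter gene Slc2a1. The fallers included Ero1a, an oxidase of the endoplasmic reticulum (-0.67, SE 0.102, adjusted p = 0.00608), and Egln3, an oxygen sensor that marks hypoxia-inducible factors for removal (-0.44, SE 0.0701, adjusted p = 0.00678), with Mxi1, Bnip3 and Pfkfb3, itself a regulator of glycolysis (-0.31, SE 0.0899, adjusted p = 0.0485). Other genes of glucose use in the list did not pass, namely Hk2 (-0.19), Pfkfb4 (-0.43), Aldoa (-0.051) and Pdk1 (0.19).

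The acatalytic Car8 (NCBI gene 297814), known as a binding partner of a calcium channel of nerve cells, was scarce. It had 5, 7, 26 and 12 counts in controls a to d and 20, 11 and 21 counts in UVB a to c. The groups overlapped, and the log2 fold change of 0.50 (SE 0.479, 95% interval -0.58 to 1.57) did not pass (edgeR adjusted p = 0.526). Its span overlaps that of LOC134478931 in GRCr8; its counts were also whole in 7 of 7 libraries, and overlap of exons was not tested. Its relative Car11 was far more abundant and measured 16.6, 18.1, 17.3 and 19.2 TPM in controls a to d and 15.6, 12.0 and 11.1 TPM in UVB a to c. Car11 fell by 0.48 on the log2 scale (SE 0.131, adjusted p = 0.042), and the call was lost in 8 of 16 alternatives, among them the fits without any 1 of the 4 controls, without UVB b or without UVB c (up to 0.121).

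Summed over the 14 family genes, carbonic anhydrase transcripts measured 379, 339, 383 and 348 TPM in controls a to d and 389, 466 and 493 TPM in UVB a to c. The groups did not overlap in this sum, but it holds Car2, which was selected on its difference. Without Car2 the other 13 genes summed to 333 to 379 TPM in controls and to 350, 406 and 397 TPM in UVB a to c, and UVB a lay inside the control range. The cytosolic genes summed to 82.6 ± 4.79 TPM (SD, n = 4) and 125 ± 37.6 TPM (SD, n = 3), and the membrane genes to 58.9 ± 4.91 TPM and 79.2 ± 8.09 TPM (same n). Without Car2 the cytosolic genes summed to 71.5 to 82.1 TPM in controls and 52.4 to 72.0 TPM after UVB. The acatalytic genes summed to 18.5 ± 1.17 TPM in controls and 13.9 ± 2.61 TPM after UVB (same n). Within these 3 sums the gene with the largest difference in mean TPM was Car2, Car12 and Car11 in turn, and the sums are given without a test.

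**Figure D4:**
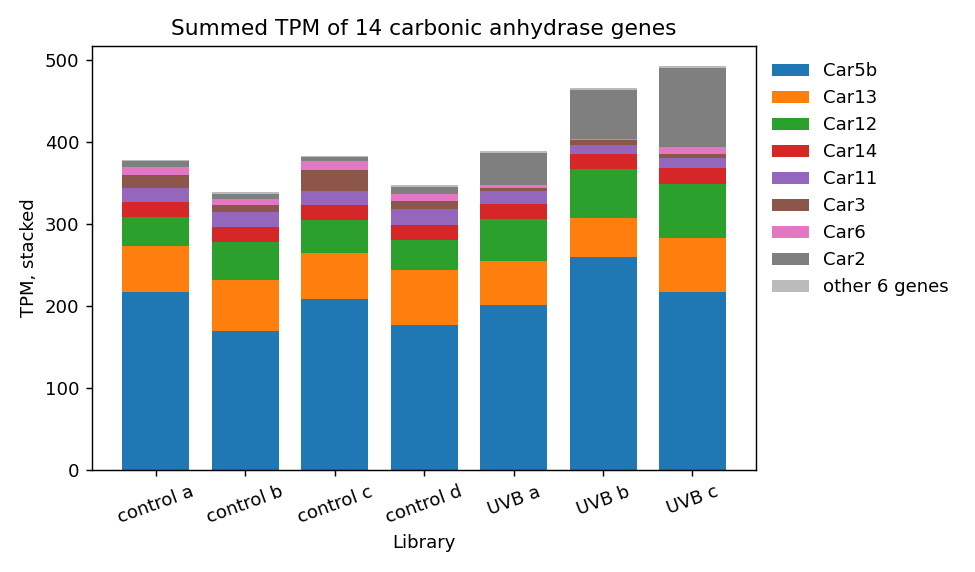
Stacked TPM of 14 carbonic anhydrase genes in each library (4 controls, then 3 UVB libraries), with the 8 most abundant in controls shown singly. Car5b takes about the lower part of every bar, and the dark grey block of Car2 is thin in controls and reaches 95.83 TPM in UVB c.

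Carbonic anhydrases work with bicarbonate and proton carriers, and few of those were called. Of 21 tested carriers, 0 rose and 1 fell, with a median log2 fold change of -0.19. At an unadjusted edgeR p under 0.05, 3 were higher and 3 lower; DESeq2 called 2 higher and 1 lower, and limma-voom called 0 higher and 1 lower. The faller was Slc9a8, an exchanger of sodium and protons in the Golgi apparatus (-0.29, SE 0.077, edgeR adjusted p = 0.0351). The most abundant gene of the list was Bsg, the chaperone of lactate and proton carriers, at 418 ± 13.2 TPM (SD, n = 4) in controls and 461 ± 12.7 TPM (SD, n = 3) after UVB (0.14, SE 0.0575, adjusted p = 0.148). The lactate and proton carrier gene Slc16a1 measured 46.6 ± 8.18 and 61.2 ± 3.92 TPM (same n; 0.39, SE 0.127, adjusted p = 0.0798). Of 12 tested genes of the vacuolar proton pump and of osteoclast acid secretion, 0 rose and 1 fell, with a median of -0.21. At an unadjusted edgeR p under 0.05, 0 were higher and 7 lower, and DESeq2 called 0 higher and 4 lower. The pump subunit gene Atp6v1c1 measured 76.3 ± 1.76 TPM (SD, n = 4) and 61.4 ± 0.401 TPM (SD, n = 3) and fell by 0.32 on the log2 scale (SE 0.053, adjusted p = 0.00774). The most abundant pump subunit, Atp6v1b2, measured 262 ± 36.1 and 223 ± 12.1 TPM (same n; -0.24, SE 0.108, adjusted p = 0.167).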

How the data were processed

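Per the submitters' processing notes, FastQC, Trimmomatic, DRAGEN and Picard were used with the rat build rn7; which did what, the gene annotation and any use of strand are not given in the sources used here. The authors deposited expected counts (estimated counts per gene, 12.5% of values not whole) and TPM values (relative abundance per length, whose sum per library is 82.0% to 84.1% of the full TPM scale). Unquoted commas shift cells, and values were therefore taken from the last 7 cells of a row; 5 rows lacked a value, which left 17246 genes. Rounded counts were tested in edgeR 4.0.16 (R 4.3.3; quasi-likelihood, robust, TMM, filterByExpr, all 7 libraries, two-sided, adjusted over 13709 genes, threshold 0.05). Standard errors were derived from the log2 fold change and its F (absolute change over root F); intervals are 95%. Alternatives used DESeq2 1.42.0, limma 3.58.1, other scalings and filters, TPM fits and each library left out. The fits were tested on simulated data. Named genes were all 10 genes, and of each pathway list at most 4, the called with the smallest p and the 1 or 2 most abundant; marker genes and further called genes named beyond this were chosen after their values were seen. The genes and lists were chosen with earlier results of these data known. GRCr8 served for names, neighbours and promoters. Depth limits precision most for Car4, Car8 and Car9, with means of 8.14, 14.6 and 12.7 counts. A marker list of 7 genes is not reported here.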

Additional observations from a re-analysis of the deposited data

How the results depend on the processing

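No paired analysis was possible because column names and labels share no replicate number. Of the genes of the family, Car12 kept its call in all 16 alternatives, and Car5b, Car8 and Car13 passed in none. Without the low-count filter 1 gene other than Car2 was called in place of 3; Car3 and Car9 were lost at adjusted p-values of 0.0559 and 0.0531. With 1 library left out, between 1 and 2 were called, and the count was 1 without UVB b. The log2 fold change of Car14 changed sign under DESeq2 (0.0013), DESeq2 size factors (0.00088), log2(TPM + 1) with or without a filter (0.010) and log2(TPM + 0.1) (0.011), and ran from -0.047 to 0.022 with 1 library left out; it passed in none of these. Over all genes 1787 were called, 2451 under DESeq2 and 1137 under log2(TPM + 1) without a filter. With 1 library left out, 1898 were called without control a, 1097 without control b, 851 without control c and 943 without control d. The count was 1214 without UVB a, 1047 without UVB b and 1168 without UVB c. The cause of these moves was not tested.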

Other observations

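Water channels, which often accompany carbonic anhydrases in secretory epithelia, were also measured. Of 5 tested genes, Aqp1, the channel of vessels and some secretory epithelia, measured 59.8 to 83.8 TPM in the 4 controls and 100.3 to 109 TPM in the 3 UVB libraries and rose by 0.45 on the log2 scale (SE 0.103, edgeR adjusted p = 0.0248). Aqp3, the glycerol and water channel of keratinocytes and the most abundant of them, measured 583 ± 93.6 TPM (SD, n = 4) and 637 ± 67.6 TPM (SD, n = 3) and did not pass (0.12, adjusted p = 0.567).

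Because genes most like Car2 included some of cornifying epithelium, 10 markers of cornifying keratinocytes were added after the values were seen, and 7 were in the tables. Of these, 0 rose and 2 fell, Krt2 (-1.21, SE 0.277, edgeR adjusted p = 0.0231) and Sbsn (-0.53, SE 0.0972, adjusted p = 0.0107); DESeq2 called 1 higher and 2 lower, and 1 was higher and 3 lower at an unadjusted edgeR p under 0.05. Their sum was 2840 to 3420 TPM in controls and 2810 to 4200 TPM after UVB. It was highest in UVB c, the library with the highest Car2, and lowest in UVB b. Most of the sum in UVB c was Krt1 (2436.24 TPM) and Krt10 (1133.77 TPM). Krt1, Krt10, Dsc1 and Kprp were highest in UVB c, and Krt2, Sbsn and Ivl were lower there than in every control. The part of cornifying keratinocytes in the level of Car2 was not tested.

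Of the other cell types in the eyelid, melanocyte markers were lower: of 5 tested, 0 rose and 3 fell (Mlana, Tyr and Mitf), and they summed to 74.8 to 137 TPM in controls and 56.7 to 66.1 TPM after UVB. Of 5 markers of basal and duct keratinocytes, Krt14 and Itga6 rose and 0 fell. Krt5 (-0.021), Krt17 (-0.043) and Trp63 (-0.089) did not pass, and the median log2 fold change of the list was -0.021. Of 6 markers of fast muscle fibres and 2 of conjunctival epithelium, 0 were called by edgeR, DESeq2 or limma-voom, and 0 had an unadjusted edgeR p under 0.05.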
